A study of Homo sapiens with 9 samples.

Results

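The genes described here respond to, or carry, the signals of transforming growth factor β (TGF-β) and bone morphogenetic proteins (BMP). They were chosen by symbol: TGFBR1, SMAD3, SMAD6, SMAD7, SKI, SKIL, ID1, ID3 and TGFBI. Of these 9 symbols, 8 had a row among the 14839 genes of the normalized expression table, and TGFBI, an extracellular matrix protein gene, was not analysed here. The rule uses the symbols and no expression value.

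TGF-β and BMP ligands bring type I and type II receptor kinases together at the cell surface, and the type I receptor then phosphorylates SMAD proteins that enter the nucleus and act on transcription. SMAD3 carries TGF-β signals, whereas the ID genes are typical direct targets of BMP signals. The pathway is restrained by inhibitory SMADs and by the co-repressors SKI and SKIL, several of which are themselves induced by the signal, so their mRNA is often read as a trace of pathway activity. In the melanocyte lineage, TGF-β is known mainly as a brake on growth and pigmentation.

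The RNA came from MP41, an established uveal melanoma cell line, transfected at 66 nM with a synthetic miR-16 or with the control mimic miR-CTR. PolyA RNA was sequenced at 6, 12, 24 and 48 h with each mimic, and a single 0 h library carries the miR-CTR label. Each of the 9 conditions had 1 library (4 received miR-16), so the conditions could not be tested against each other and the spread between cultures is unknown. The question was what a rise in miR-16, a miRNA that lowers cell cycle mRNAs through sites in their 3′UTR, does to the transcriptome.

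All groups shared the cell line and its serum-containing medium, and the labels name no treatment with TGF-β or BMP. The labels do not say whether the 0 h cells had received the mimic. Mature miR-16 has no polyA tail, so the libraries do not show how much of the mimic was taken up. The table numbers its times instead of naming the hours, and these numbers were taken in rising order as 0, 6, 12, 24 and 48 h. The libraries held between about 20270000 and 27370000 reads. All 7 melanocyte lineage markers searched for had high values, from 12.29 to 17.88 on the log2 scale, and 4 of 7 fibroblast markers had values from 3.52 to 8.86. Of 4 leukocyte markers, CD68 had values, from 5.46 to 5.86, and the endothelial and epithelial markers were not analysed here. The summed linear level of the fibroblast markers lay between 499 and 778 in the miR-CTR libraries and between 507 and 623 in the miR-16 libraries. Single markers differed more between the mimics, with a mean miR-16 minus miR-CTR difference at 24 and 48 h of 1.795 for PDGFRB and 0.82 for PDGFRA, both among the low values, of −0.81 for LUM and of 0.04 for COL1A1 (log2). The part of these markers in the results was not tested.

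Because the mimic acts by base pairing, its sequence and the matching sites are shown first. The mature miR-16 sequence is the one RefSeq gives for both of its genes, on chr3:160404754-160404775 (MIR16-2) and chr13:50049027-50049048 (MIR16-1) of GRCh38.p14. The control sequence was taken from the oligonucleotide table of the study, where the rows of the biotinylated miR-16 and miR-CTR each hold the sequence of the other. These rows were taken as swapped, and the transfected miR-CTR was assumed to have this sequence. Capitals mark the seed, bases 2 to 8 from the 5′ end.
hsa-miR-16-5p: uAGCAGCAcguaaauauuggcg
control sequence: uUGUACUAcacaaaaguacug

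A site was an exact match, in the longest annotated 3′UTR, to the complement of the seed (7mer-m8, TGCTGCT), the same followed by an A (8mer, TGCTGCTA), or the 8mer without its first base (7mer-A1, GCTGCTA). A 7mer inside an 8mer was not counted again. A miR-16 site was present in 4 of the 8 genes, namely SMAD3, SMAD7, SKI and SKIL. Among 11584 protein-coding genes with values and a 3′UTR, 29.2% had a site. The 8 genes had longer 3′UTRs, with a median of 2436 bases against 1418 over all of these genes. An 8mer was present in SMAD7, SKI and SKIL, and in 5.0% of all of these genes.

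The sites of the 4 genes are given as 22 bases of the sense strand that end with the match, which is in capitals. They lie in GRCh38 at chr1:2307302-2307308, chr1:2308367-2308373 and chr1:2310018-2310025 for SKI, at chr18:48921310-48921317 on the reverse strand for SMAD7, at chr3:170393051-170393058 for SKIL, and at chr15:67192027-67192033 and chr15:67194888-67194894 for SMAD3. The SKIL 8mer overlaps a 7mer-m8 that starts at chr3:170393048.
SKI site 1: ggacccaggtcttccTGCTGCT
SKI site 2: gaggggggtcttggtTGCTGCT
SKI site 3: cccgtgccccacgcTGCTGCTA
SMAD7: acttcaaactacttTGCTGCTA
SKIL: gtgttgttatgtgcTGCTGCTA
SMAD3 site 1: tggtactttattcttTGCTGCT
SMAD3 site 2: ttcactcaccttcacTGCTGCT

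The SKI sites start at bases 537, 1602 and 3253 of a 3′UTR of 3354 bases, and that of SMAD7 at base 55 of 1519. No match to the miR-16 seed was found in the 3′UTRs of TGFBR1, with 4887 bases, of SMAD6, with 1313 bases, of ID1, with 678 bases, or of ID3, with 523 bases. Matches to the seed of the control sequence (7mer-m8, TAGTACA) were found in TGFBR1, at chr9:99149708-99149714 and chr9:99152522-99152528, and in SKIL, at chr3:170393464-170393470 and chr3:170393932-170393938. Of all protein-coding genes with a 3′UTR, 14.7% had a match of any of the 3 kinds to the control sequence. A match is a description and does not show binding.

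**Figure D1:**
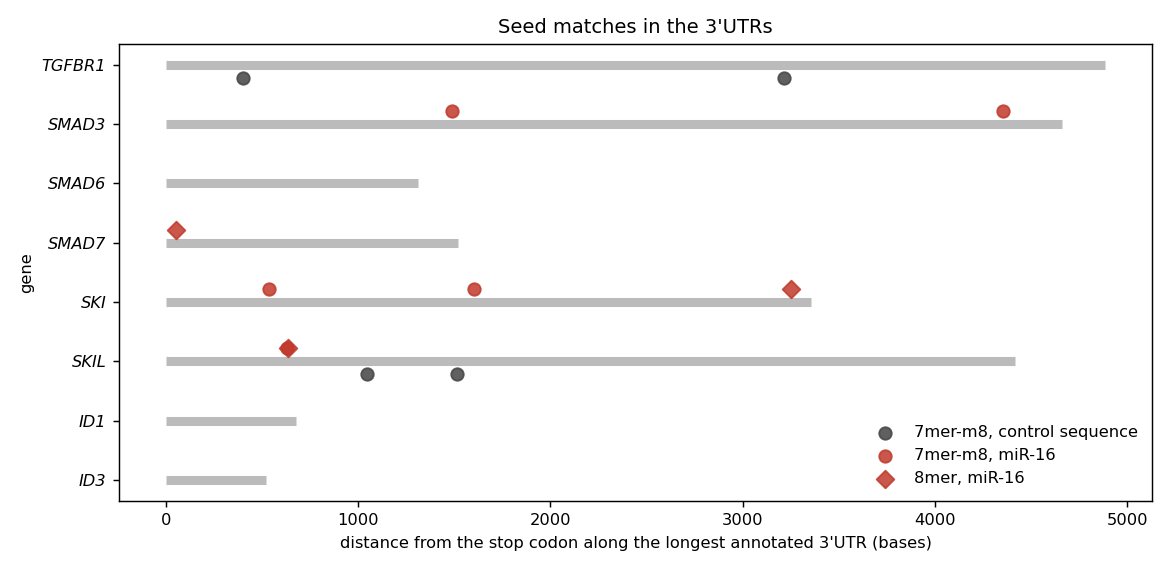
Each grey bar is the longest annotated 3′UTR of a gene, with the distance from the stop codon in bases on the horizontal axis and 1 gene per row. Red marks are matches to the miR-16 seed, with diamonds for 8mers, and dark marks are matches to the control sequence; SKI has 3 miR-16 matches, and SMAD6, ID1 and ID3 have no match to either sequence.

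None of the 8 genes was called down- or up-regulated by miR-16. The values are log2 of normalized reads plus 1, the logFC is the miR-16 minus the miR-CTR value at the same time, and a gene was called where the logFC passed 0.5 in size, the threshold of the study. In the late window, the mean of 24 and 48 h, 0 of 8 passed it, against 13.5% of all genes (5.73% down and 7.76% up). In the early window, the mean of 6 and 12 h, 0 of 8 passed it, against 3.48% of all genes. At the single times, 0 of 32 values passed it and the highest size was 0.40, while 28.5% of all genes passed it at 1 or more of the 4 times. The median size of the late logFC was 0.13 over the 8 genes and 0.19 over all genes. Each of the 8 had a mean value of 7.74 or more, above the limit of 7.02 for the lowest 25% of all genes. Calls were rarer among the 11128 genes above this limit, with 535 down and 441 up late, and 41 down and 59 up early. Their median late size was 0.165. In bulk RNA of this kind, fewer expressing cells and less RNA per cell cannot be told apart.

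**Figure D2:**
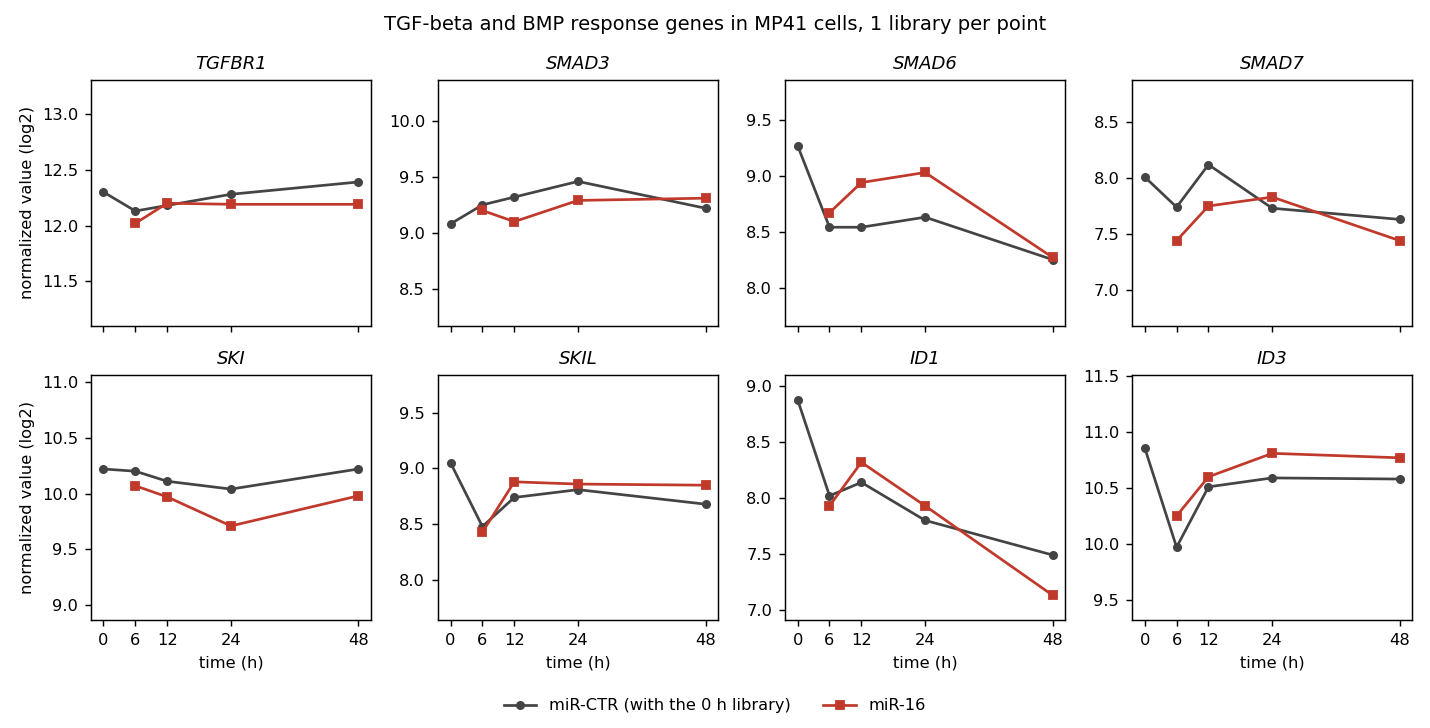
Normalized value (log2, vertical axis, the same span in every panel) against time (h, horizontal axis) for each gene, with 1 library per point, miR-CTR and the 0 h library as circles and miR-16 as squares. ID1 and SMAD6 are highest at 0 h and lowest at 48 h in both series, and the distance between the mimics is at most 0.40 at any time.

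TGFBR1 (ENSG00000106799.12, chr9:99104038-99154192, forward strand) encodes the type I receptor through which TGF-β signals. Its value was 12.30 at 0 h, and 12.13, 12.18, 12.28 and 12.39 with miR-CTR at 6, 12, 24 and 48 h. With miR-16 it was 12.02, 12.20, 12.19 and 12.19. The values spanned 0.37, and the miR-16 library was the lower at 3 of the 4 times. Its late logFC was −0.15 (counting SE 0.021, 95% counting interval −0.19 to −0.10), a 0.904-fold level. The counting SE comes from the reads alone, 3612 to 6290 per library for TGFBR1, and covers no difference between cultures. Of all genes, 59.4% had a late logFC of larger size.

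SMAD3 (ENSG00000166949.15, chr15:67063763-67195195, forward strand) encodes the SMAD that carries TGF-β and activin signals. Its value was 9.08 at 0 h, 9.25, 9.32, 9.46 and 9.22 with miR-CTR, against 9.20, 9.10, 9.29 and 9.31 with the miR-16 mimic. The 0 h library was the lowest of the 9, but the span was 0.38. The logFC was −0.05, −0.22, −0.17 and 0.09 at 6, 12, 24 and 48 h, and so changed sign between 24 and 48 h. Over the late window it was −0.04 (counting SE 0.057, interval −0.15 to 0.07), smaller in size than that of 87.0% of genes. SMAD3 has miR-16 sites in its 3′UTR. A gene on the opposite strand, AC087482.1, covers 2.0% of its exon bases, and the sources used here do not say whether strand was used in counting.

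SMAD6 and SMAD7 encode the inhibitory SMADs, of which SMAD6 acts mainly on BMP signals and SMAD7 on both branches. SMAD6 (ENSG00000137834.14, chr15:66702228-66782848, forward strand) had 9.27 at 0 h, 8.54, 8.54, 8.63 and 8.25 with miR-CTR, against 8.67, 8.94, 9.03 and 8.27 with miR-16. Both series were below 0 h at every time, and the miR-16 library was higher by 0.13, 0.40, 0.40 and 0.02 at 6, 12, 24 and 48 h. The 12 and 24 h differences, with counting intervals from 0.21 to 0.59, were the largest of the 8 genes at any time, and the difference was 0.02 (−0.20 to 0.24) at 48 h. The late logFC was 0.21 (counting SE 0.075, interval 0.06 to 0.36).

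SMAD7 (ENSG00000101665.9, chr18:48919853-48952052, reverse strand) had 8.01 at 0 h, 7.74, 8.12, 7.73 and 7.63 with miR-CTR, against 7.44, 7.75, 7.83 and 7.44 with miR-16. It was lower with miR-16 at 6 h by 0.30, at 12 h by 0.37 and at 48 h by 0.19, and higher at 24 h by 0.10. Its early logFC of −0.34 (counting SE 0.099, interval −0.53 to −0.14) was the largest in size of the 8 genes, and 8.9% of all genes had a larger one. Late, SMAD7 had a logFC of −0.05 (counting SE 0.102, interval −0.24 to 0.15). SMAD7 had 150 to 291 reads per library, so a late difference within about this interval was not detectable at this depth.

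SKI and SKIL, the latter also known as SnoN, encode co-repressors that bind SMAD complexes and silence their targets. SKI (ENSG00000157933.9, chr1:2228695-2310119, forward strand) had 10.22 at 0 h, 10.20, 10.11, 10.04 and 10.22 with miR-CTR, against 10.07, 9.97, 9.71 and 9.98 with miR-16. All 4 miR-16 values were below the miR-CTR value at the same hour, by 0.13, 0.14, 0.33 and 0.24, and the lowest value of the 9 was that of miR-16 at 24 h. Its late logFC was −0.29 (counting SE 0.046, interval −0.38 to −0.20), a 0.821-fold level. It was the largest late difference in size of the 8 genes, yet 33.3% of all genes had a larger one. SKI had 3 miR-16 sites, the most among the 8. The late logFC was −0.04 for SMAD3 and 0.11 for SKIL, with 2 sites each, and −0.05 for SMAD7, with 1. A link between the number of sites and the difference was not tested.

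SKIL (ENSG00000136603.13, chr3:170357678-170396835, forward strand) had 9.05 at 0 h, 8.48, 8.74, 8.81 and 8.68 with miR-CTR, against 8.43, 8.88, 8.86 and 8.85 with miR-16. Its lowest values were those of both mimics at 6 h. For the late window its logFC was 0.11 (counting SE 0.068, interval −0.02 to 0.24). The 3′UTR of SKIL holds the 8mer and also 2 matches to the control sequence. SKI and SKIL, related in function and both with miR-16 sites, thus had late differences of opposite sign, of which only that of SKI had a counting interval without 0.

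ID1 and ID3 encode helix-loop-helix proteins without a DNA-binding domain, which hold other helix-loop-helix factors off DNA, and both genes are direct BMP targets. ID1 (ENSG00000125968.8, chr20:31605283-31606515, forward strand) had 8.88 at 0 h, 8.02, 8.14, 7.80 and 7.49 with miR-CTR, against 7.93, 8.32, 7.93 and 7.13 with the miR-16 mimic. The difference between mimics was −0.09, 0.18, 0.13 and −0.36 and thus above 0 at 2 of the 4 times. The late logFC was −0.12 (counting SE 0.105, interval −0.32 to 0.09). Behind these values stood 453 reads at 0 h and 132 with miR-16 at 48 h, the lowest number for any of the 8 genes.

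ID3 (ENSG00000117318.8, chr1:23557918-23559794, reverse strand) had 10.86 at 0 h, 9.97, 10.51, 10.59 and 10.58 with miR-CTR, against 10.25, 10.60, 10.81 and 10.77 with miR-16. The miR-16 value was the higher at each time, by 0.28, 0.09, 0.22 and 0.19. The late logFC was 0.21 (counting SE 0.036, interval 0.14 to 0.28), a 1.15-fold level, and 46.6% of all genes had a larger one.

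SMAD6, SKI and ID3 were the 3 of 8 genes whose logFC had the same sign at all 4 times, SMAD6 and ID3 above 0 and SKI below. Over all genes this share was 34.5%. The late counting interval left out 0 for 4 of the 8 (TGFBR1, SMAD6, SKI and ID3), against 59.9% of all genes. Both shares were near those of all genes, and such an interval says nothing of the spread between cultures.

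**Figure D3:**
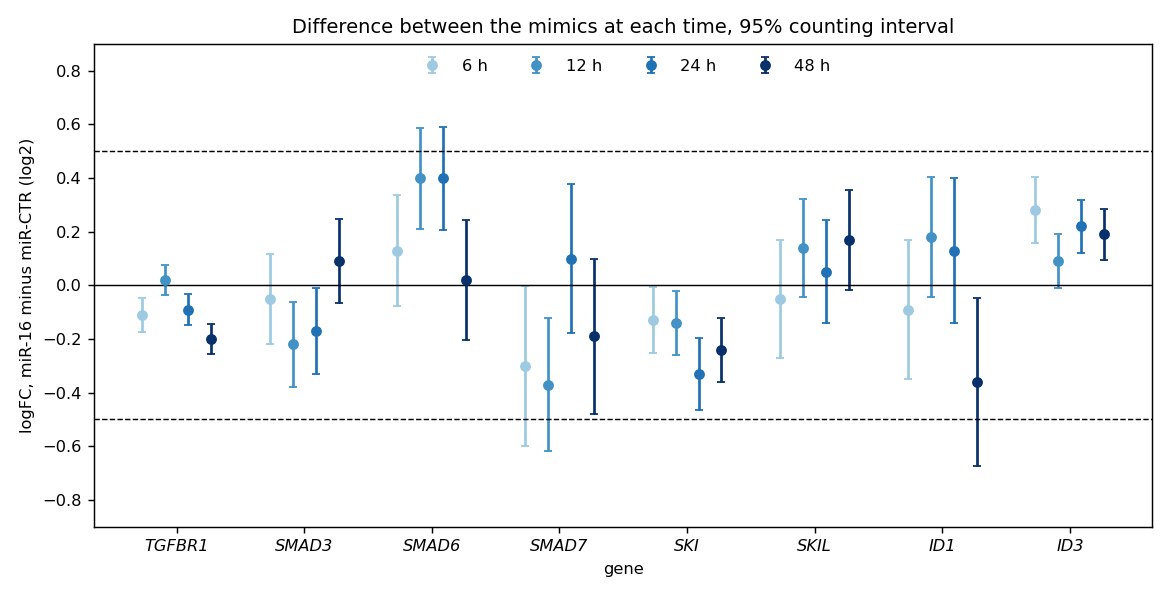
Difference between the mimics (logFC, log2, vertical axis) for each gene at 6, 12, 24 and 48 h, light to dark, with 95% counting intervals as bars and the call threshold of 0.5 as dashed lines. No point lies past a dashed line, SKI lies below 0 and SMAD6 and ID3 lie above 0 at all 4 times.

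The differences from the 0 h library were wider than those between the mimics. Their median size in the late window was 0.29 with miR-CTR and 0.30 with miR-16 over the 8 genes, and 0.25 and 0.29 over all genes. ID1 was down-regulated late in both series: it fell by 1.24 with miR-CTR (counting SE 0.097, a 0.425-fold level) and fell by 1.35 with miR-16 (counting SE 0.103, a 0.392-fold level). SMAD6 fell by 0.83 with miR-CTR (counting SE 0.080) and fell by 0.62 with miR-16 (counting SE 0.079). These were 2 of 8 genes past −0.5 in each series, where 9.79% of all genes passed it with miR-CTR and 11.7% with miR-16. All of these comparisons share the single 0 h library, and a deviation of that library cannot be told apart from a change with time.

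In the early window, 3 of 8 genes were past −0.5 with miR-CTR, against 3.25% of all genes. They were SMAD6, with a change of −0.73, ID1, with −0.80, and ID3, with −0.62. With miR-16, ID1 passed it with −0.76, against 3.05% of all genes, and the changes of SMAD6 and ID3 were −0.47 and −0.44. At 6 h alone, 4 of 8 were past −0.5 with miR-CTR and 5 of 8 with miR-16, where the shares of all genes were 3.98% and 5.34%. SKIL was among them in both series, with −0.57 and −0.62, and SMAD7 had −0.57 with miR-16 and −0.27 with miR-CTR.

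ID3 and SKIL were lowest at 6 h in both series and lay nearer to the 0 h value afterwards, and ID3 was 0.61 higher at 48 than at 6 h with miR-CTR and 0.52 higher with miR-16. ID1 went the other way, with a 48 h value 0.53 below the 6 h value with miR-CTR and 0.80 below with miR-16, and this comparison does not use the 0 h library. Of all genes, 8.4% were lower by over 0.5 at 48 than at 6 h with both mimics, and ID1 was the one of the 8 that was. SMAD6 was 0.29 and 0.40 lower, and TGFBR1, SMAD3, SMAD7 and SKI differed by at most 0.26 in either series.

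SMAD6, SKIL, ID1 and ID3 were lower than at 0 h in all 8 later libraries, 4 of 8 genes, where 11.3% of all genes were. In the wider pathway lists given further on, 9 of 85 genes were. Among these 9 were ID2 and ID4, the other ID family genes, which were singled out after their values were seen. ID2 had 10.89 at 0 h and between 10.09 and 10.68 in the later libraries, and ID4 had 11.30 at 0 h and between 10.49 and 10.85. All 4 ID genes were thus highest at 0 h, and at 48 h ID1 was the farthest below it.

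**Figure D4:**
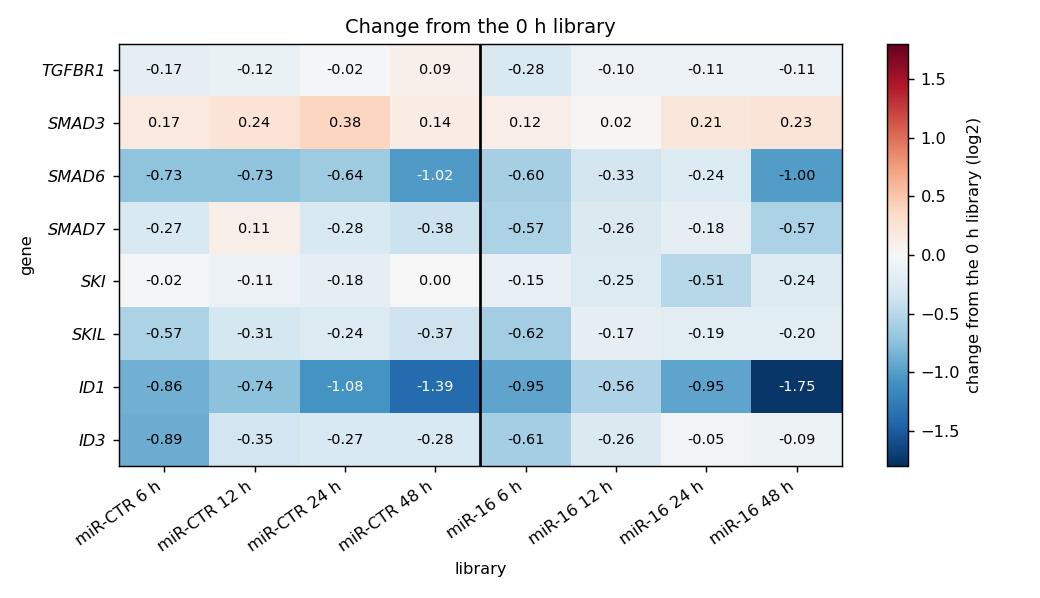
Difference of each later library (columns, miR-CTR left and miR-16 right of the line) from the 0 h library for each gene (rows), in log2, with blue for lower and red for higher values. SMAD6, SKIL, ID1 and ID3 are below 0 in all 8 columns, down to −1.75 for ID1 with miR-16 at 48 h, whereas SMAD3 is above 0 in all 8.

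The promoter window of SMAD6 held a sequence known to be bound by SMAD3 and SMAD4, the palindrome GTCTAGAC. The windows were 300 bases of RefSeq on GRCh38.p14, from 250 bases before to 50 bases after a transcription start, searched on both strands, and 7 of the 8 genes had one. The palindrome was found in 1 of these 7 genes, and in 71 of 35116 windows (0.2%). It is shown, in capitals, with 8 bases on either side, at chr15:66702216-66702239.
SMAD6 promoter: gccaaagtGTCTAGACtggcatat

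The core GGCGCC, which SMAD1 and SMAD5 bind, was found in the windows of SKIL, TGFBR1 and SMAD3, 3 of the 7 genes, and in 19.2% of all windows. It is a GC-rich word that is common in promoters. SMAD6, with the palindrome, was 1 of the 2 genes past −0.5 from 0 h late with both mimics, and for the other, ID1, neither motif was found. Sequence beyond the windows was not searched, so a motif farther from the transcription start would be missed. The part of either motif in these changes was not tested. These are matches of letters, and no binding was measured.

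Levels can be compared between genes only per length, so the normalized values were divided by the length of the merged exons in kilobases and put on the log2 scale. On this scale, ID3 was the highest, with a mean of 9.70 (9.12 to 10.01 over the 9 libraries), followed by TGFBR1 with 9.43 (9.24 to 9.61). ID1 had 7.65 (6.82 to 8.57), SKI 7.45 (7.10 to 7.61), SMAD3 6.06 (5.89 to 6.27) and SKIL 5.79 (5.47 to 6.09). SMAD6 had 5.58 (5.15 to 6.17) and SMAD7 was the lowest with 5.41 (5.10 to 5.78). Neighbours in this order overlapped over the libraries, except TGFBR1 above ID1 and SKI above SMAD3.

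The other genes of the pathway were read from 11 lists by role, and 85 of 114 listed genes had values. In the late window 14 were called up-regulated and 7 down-regulated, together 24.7% against the 13.5% of all genes. Early, 4 of the 85 were called up and 1 down, where 3.48% of all genes were called. Of the 4 called up early, only CTGF was above the lowest 25% of mean value. The lists were chosen with earlier results of these data known, so their shares are no test of the pathway. The ligands for BMP (4 genes), the extracellular antagonists (4 genes) and the receptor-activated and common SMADs (5 genes) had 0 late calls, and the late logFC of these SMADs lay between −0.07 and 0.35.

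The other TGF-β target genes (18 with values) had 6 up-regulated and 1 down-regulated, with a median late logFC of 0.08, and the other BMP target genes (9 with values) had 5 up-regulated and 0 down-regulated, with a median of 0.54. Over all genes, 7.76% were up-regulated and 5.73% down-regulated late, with a median of 0.005. Of the 5 up-regulated BMP targets, 2 were in the lowest 25% of mean value, as was 1 of the 6 up-regulated TGF-β targets. By the naming rule, which left out 6 called genes in the lowest 25% of mean value, 9 up-regulated and 6 down-regulated genes of all lists are named. The target lists hold genes that other signals also drive.

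CTGF and CYR61, matricellular proteins of the same family and targets of both TGF-β and YAP, showed the widest distance between the mimics. CTGF had 10.67 at 0 h, 10.11, 9.41, 8.34 and 7.02 with miR-CTR, against 10.69, 10.51, 10.70 and 10.29 with miR-16. The miR-CTR series declined at each time and the miR-16 series stayed within 0.38 of the 0 h value. The late change from 0 h was −2.99 with miR-CTR and −0.18 with miR-16, and the 3′UTR of CTGF has a match to the control sequence and none to miR-16. The part of either in the difference was not tested. CYR61 had 10.55 at 0 h, 10.44, 9.60, 8.78 and 6.95 with miR-CTR, against 10.67, 10.13, 9.77 and 8.93 with miR-16. It declined in both series, less with miR-16, with a late logFC of 1.49 (counting SE 0.081).

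TGM2, a transglutaminase that crosslinks matrix proteins, went up with miR-16 and down with miR-CTR, with late changes from 0 h of 0.66 and −0.59 and a late logFC of 1.25 (counting SE 0.044). CDKN2B, the cell cycle inhibitor through which TGF-β slows many cells, had a late logFC of 0.57 (counting SE 0.101), and TSC22D1 one of 0.53 (counting SE 0.045). Both calls rest on 48 h, since the logFC was 0.19 at 24 h and 0.95 at 48 h for CDKN2B, and 0.31 and 0.74 for TSC22D1. The late change from 0 h was 0.29 with miR-16 and −0.28 with miR-CTR for CDKN2B. For TSC22D1 it was −0.045 with miR-16 and −0.57 with miR-CTR, so this difference lay mainly in the miR-CTR series. SNAI2, a zinc finger repressor of the neural crest and of melanocytes, was the down-regulated target, with −0.71 (counting SE 0.053). Its value was 8.76 at 0 h, and at 48 h it was 10.14 with miR-CTR and 9.23 with miR-16.

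Among the BMP targets, ATOH8 had 11.09 at 0 h, 10.70, 10.92, 10.80 and 10.39 with miR-CTR, against 11.03, 11.32, 11.39 and 11.21 with miR-16. It was higher with miR-16 at every time, and its late logFC was 0.71 (counting SE 0.033). DLX2 had 0.66 (counting SE 0.115) and GATA2 had 0.54 (counting SE 0.098), both transcription factors of development. The DLX2 call rests on 48 h, with 0.33 at 24 h and 0.98 at 48 h. The late change from 0 h was 0.735 with miR-16 and 0.08 with miR-CTR for DLX2. For GATA2 it was 0.035 with miR-16 and −0.505 with miR-CTR, so this difference lay mainly in the miR-CTR series. The ID genes of the same pathway had late differences from −0.20 for ID2 to 0.23 for ID4, all under the threshold.

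The down-regulated genes apart from SNAI2 act on receptors, SMADs or ligand processing. ACVR2B, a type II receptor for activins, had 9.21 at 0 h, 9.20, 9.49, 9.74 and 9.67 with miR-CTR, against 8.62, 8.88, 8.85 and 9.19 with miR-16. It was lower with miR-16 at each time, from 6 h on, and its late logFC was −0.69 (counting SE 0.057), with −0.89 at 24 h and −0.48, short of the threshold, at 48 h. FURIN, the protease that matures TGF-β precursors, had −0.62 (counting SE 0.049). SMURF2 and WWP1, ubiquitin ligases that act on SMADs and receptors, had −0.53 (counting SE 0.060) and −0.55 (counting SE 0.027), and TGIF2, a SMAD co-repressor, had −0.55 (counting SE 0.069). GDF11, a ligand related to myostatin, was up-regulated with 0.51 (counting SE 0.036), close to the threshold. SMURF2 passed the threshold at 24 h (−0.68) and not at 48 h (−0.38), and GDF11 at 48 h (0.63) and not at 24 h (0.38). With miR-CTR, the late change from 0 h was 0.495 for ACVR2B, 0.37 for FURIN, 0.455 for WWP1 and 0.29 for TGIF2. With miR-16 it was −0.19, −0.245, −0.095 and −0.26 for the same genes, so much of each difference lay in the miR-CTR series. For SMURF2 it was −0.055 with miR-CTR and −0.585 with miR-16.

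All 7 of the down-regulated pathway genes had a miR-16 site in the 3′UTR, against 0 of the 14 up-regulated genes and 25 of the 64 that were not called (39.1%). These calls are differences between the mimics, and those of ACVR2B, FURIN, WWP1, TGIF2 and SNAI2 include a rise from 0 h with miR-CTR. Across all coding genes, the median late logFC was −0.09 with a site and 0.02 without. Of the 574 coding genes with an 8mer, 15.9% were down-regulated and 3.0% up-regulated late, so a gene with such a site and no call, as SMAD7, SKI and SKIL are, is the usual case. The median late logFC was −0.04 over the 4 described genes with a site and 0.05 over the 4 without. The control sequence had a match in 4 of the 14 up-regulated pathway genes (28.6%), GDF11 and CTGF among them. It had one in 0 of the 7 down-regulated and 13 of the 64 not called (20.3%), against 14.7% of all coding genes. Of the 259 coding genes with an 8mer match to it, 15.4% were up-regulated and 4.2% down-regulated late. The part of either mimic in these differences was not tested. Sites of 3 down-regulated genes are shown for comparison with those of SKI and SKIL, with the match in capitals. They lie at chr3:38484611-38484617 for ACVR2B, which has 4 sites, at chr15:90882707-90882713 for FURIN, and on the reverse strand at chr17:64545617-64545623 for SMURF2, where the match is a 7mer-A1.
ACVR2B: agtgaatgttcctaaTGCTGCT
FURIN: tggcctcccacccgaTGCTGCT
SMURF2: atgaggccacattcaGCTGCTA

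**Figure D5:**
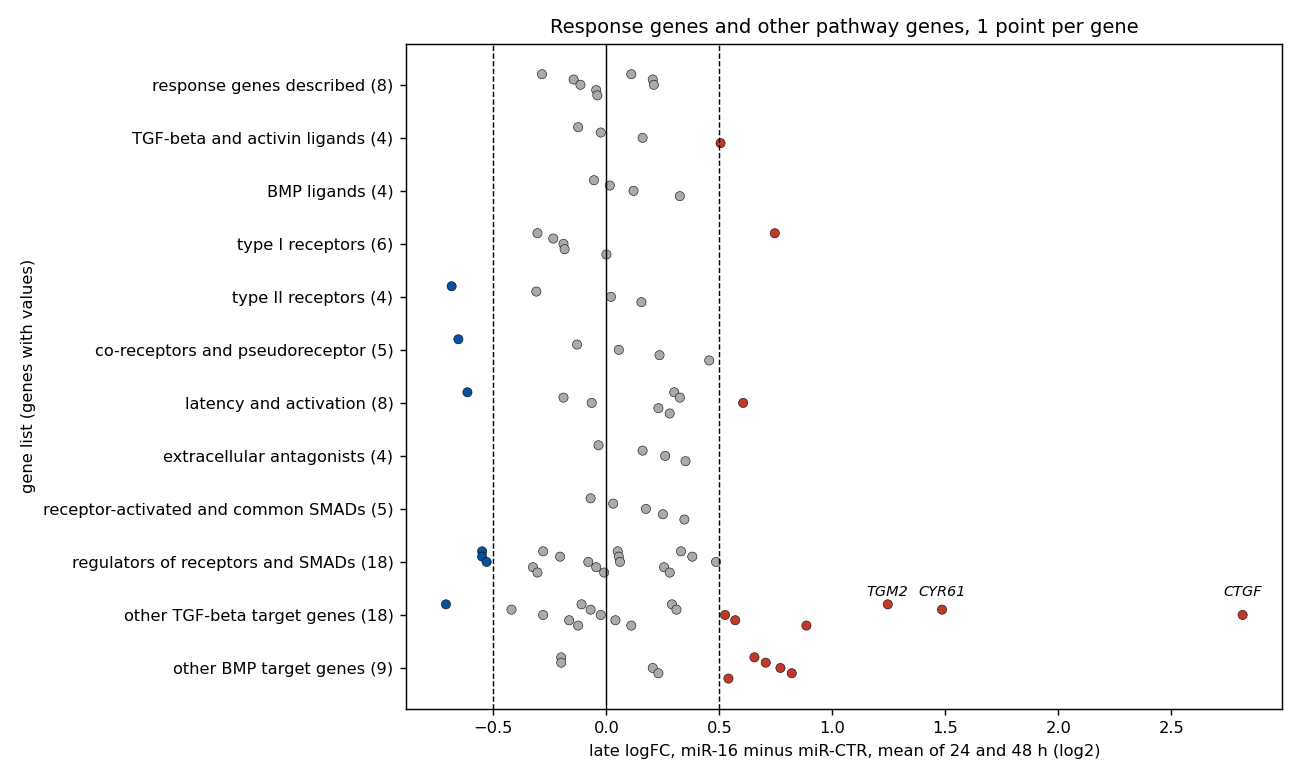
Late logFC (mean of 24 and 48 h, log2, horizontal axis) of the 8 response genes and of the other pathway genes by list (rows, with the number of genes with values), 1 point per gene, with blue for down-regulated, red for up-regulated and dashed lines at 0.5 in size. The 8 response genes lie between −0.29 and 0.21, and the calls at the right are mostly other TGF-β and BMP target genes, with CTGF at 2.82.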

How the data were processed

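MP41 cells gave 1 library of polyA RNA per condition. The submitters' processing notes name FastQC, STAR 2.4.0a, featureCounts and Subread 1.5.0-p3 and the builds hg38 and GRCh38, without their roles. The normalization tool, the annotation and the filter on low genes are not given in the sources used here. The authors deposited log2 values with 2 decimals, whose other steps were read from the values. The low values were those up to 5 on the log2 scale. In each library 100% of them were whole multiples of 1 step once the log2 and the added 1 were undone. The steps lay between 0.8531 and 1.1494, and matches were judged within the rounding of the deposited values. Whole reads divided by a factor of their library, with 1 added before taking log2, give such steps. Reads recovered with these steps gave the counting SE by the delta method, and 95% intervals cover counting error only.

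No further normalization was applied, and no count model or p-value was used because no condition had a replicate. The genes and the lists were chosen with earlier results of these data known. Genes were named by these rules: the 9 symbols, and the other pathway genes past 0.5 late above the lowest 25% of mean value. No gene of similar pattern was sought, because this applied to genes past 0.5 late. GENCODE version 29 on GRCh38 gave positions and 3′UTRs. It was matched by symbol for 13002 of 14839 genes (11627 protein-coding) and for all 8 described genes. RefSeq on GRCh38.p14 gave miRNA and promoter sequences. The calling was run on simulated data with planted changes larger than the threshold and counting error only. Such data hold no spread between cultures, so they cannot show how calls behave with 1 library per condition. Steps used Python 3.11.15, numpy 2.4.6, pandas 2.3.3, scipy 1.17.1 and matplotlib 3.10.9. The RNA pull-down and the other cell lines were not analysed here.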

Additional observations from a re-analysis of the deposited data

Results flagged for a closer look

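CDKN2B and DLX2 had logFC values below 0 at 6 and 12 h and above 0 at 24 and 48 h, so that the windows pointed in opposite directions. For CDKN2B, the late minus the early logFC was 0.77, and the 4 values were −0.11, −0.29, 0.19 and 0.95. For DLX2, it was 0.93, and the 4 values were −0.49, −0.06, 0.33 and 0.98. With 1 library per time, the difference between the windows was not tested.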

How the results depend on the processing

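No described gene was called late or early, in either direction, under a 1.5-fold threshold, centring on the median gene, quantile normalization, a pseudocount of 10, omission of the lowest 25% of mean value, single times, both times of a window, or an added requirement on the counting interval. The 1.5-fold threshold, the pseudocount, the need for both times and the counting interval can only remove calls. Omission of the lowest 25% leaves out none of the 8. As there was no call to begin with, these settings could not give another result. With the 0 h library as the reference, 2 described genes were down-regulated late and 1 early. The late logFC of all 8 stayed within its counting interval under quantile normalization (largest move 0.06), centring and the pseudocount. The omission of low genes cannot change the logFC of a gene that is kept. The late logFC left its counting interval for 7 of 8 with the 0 h reference and for 4 of 8 at 24 h and at 48 h alone. The single times lie equally far from their mean, so these are the same 4 genes. Of the other pathway genes, 7 were down-regulated late, but 4 at the 1.5-fold threshold. The 14 up-regulated became 9 without the lowest 25%, 7 with the 0 h reference, 9 at 24 h alone, 17 at 48 h alone and 8 at both times. The cause was not tested.

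No paired analysis was possible because the labels give no replicate numbers, and the logFC already sets libraries of the same hour against each other. A fit with mimic and time as terms, which would use the 4 times as replicates, was not run. Each single time leaves out the other pair of libraries of the window. The lack of replicates limits every comparison. Depth limits ID1 and SMAD7 most, with late counting SEs up to 0.105. The order of the times and the sequence of the transfected control mimic are assumptions.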
